A study of Mus musculus with 3 samples.

Results

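The NF-kB family of transcription factors is encoded in the mouse by 5 subunit genes, Nfkb1, Nfkb2, Rel, Rela and Relb, and their transcripts were measured in PyMT mammary tumor cells cultured with or without RANKL (RL). All non-control probes whose accession belongs to 1 of these genes were taken, which gave 7 of the 55681 distinct probes on the array. Of the 5 genes, 4 were among the 21728 genes and transcripts with a signal well above background, and Rel was not. The cultures came from tumors of 3 MMTV-PyMT mice, in which the mouse mammary tumor virus promoter drives the polyoma middle T oncogene in the mammary epithelium, and the tumors are called 1, 2 and 3 here. From each tumor, 1 culture received RL for 24 h and 1 was left untreated as control, both in DMEM F12 medium with serum, antibiotics, insulin, EGF and cholera toxin. The labels give the RL dose as 1000 µg/mL and the methods as 1 µg/mL. RNA of both cultures of a tumor was hybridized on 1 two-color Agilent array, with RL in Cy3 for tumors 1 and 3 and in Cy5 for tumor 2.

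NF-kB proteins bind DNA as dimers and are held inactive in the cytoplasm by inhibitory IkB proteins. In the canonical branch, the IkB kinase complex marks IkB for destruction and frees dimers of Rela or Rel with p50, the product of the Nfkb1 precursor p105. In the noncanonical branch, the kinase NIK acts through IKK alpha on p100, the Nfkb2 product, which is processed to p52 and enters the nucleus with Relb. RANK, the receptor of RL, is a member of the TNF receptor superfamily that signals through TRAF adaptors to both branches, and it is known in the mammary gland for its part in the growth of the progesterone-driven epithelium. These arrays read transcripts only, so neither processing of p105 and p100 nor the location of a subunit was measured.

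The 3 arrays shared 1 slide and 1 scan. In each channel, 54.6% to 56.2% of probes had a signal well above background. No spot of a subunit gene was saturated or marked as an outlier. Values below are log2 ratios of RL over control after background correction and loess normalization, and levels are normalized log2 intensities. Each SE and confidence interval from limma draws part of its variance from all other genes, so for the subunits an interval from the 3 ratios of the gene alone, chosen after the data were seen, is given as well. Precision is limited by the 3 arrays, and fewer cells of a type and less RNA per cell cannot be told apart in such cultures.

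Both noncanonical subunits were higher with RL in each of the 3 tumors, most of all in tumor 1. Nfkb2 encodes p100, which serves both as the precursor of p52 and as an inhibitor that holds Relb in the cytoplasm. Its level was 10.69 in the control and 11.94 in the RL culture of tumor 1, 11.13 and 11.56 in tumor 2, and 11.15 and 11.35 in tumor 3. The log2 ratio was 1.25, 0.43 and 0.20 in tumors 1, 2 and 3, so all 3 lay above 0 and tumor 1 stood apart from the other tumors. In the order of all 21728 genes by their ratio, Nfkb2 was number 7 from the top in tumor 1, number 280 in tumor 2 and number 2161 in tumor 3. The mean was 0.62 (SD 0.55, n = 3 tumors), a fold change of 1.54. Limma gave an SE of 0.17, a 95% confidence interval of 0.25 to 1.00 and an adjusted p of 0.403, and from the 3 ratios alone the SE was 0.32 and the interval −0.75 to 2.0, on both sides of 0. Without tumor 1 the mean was 0.31.

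Relb, the partner of p52, has no processed precursor and carries a transactivation domain. Its level was 10.89 in the control and 12.04 in the RL culture of tumor 1, 11.61 and 11.90 in tumor 2, and 11.76 and 11.96 in tumor 3. The log2 ratio was 1.15, 0.29 and 0.21, again highest in tumor 1, and Relb was number 13, 710 and 1929 from the top in the 3 tumors. A second probe, matched to another Relb transcript, gave 1.16, 0.45 and 0.23. Both probes therefore placed the tumors in 1 order, with means of 0.55 and 0.61. For the brighter probe the SD was 0.52 (n = 3 tumors) and the fold change 1.46. By limma the SE was 0.16, the 95% confidence interval 0.19 to 0.91 and the adjusted p 0.452, whereas the 3 ratios alone gave an SE of 0.30 and an interval of −0.75 to 1.85, which holds 0 too. Without tumor 1 the mean was 0.25.

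The canonical subunits differed among themselves. Nfkb1, whose p105 product is both the precursor of p50 and an IkB-like inhibitor, had levels of 9.63 in the control and 9.69 in the RL culture of tumor 1, 10.08 and 10.14 in tumor 2, and 9.96 and 9.88 in tumor 3. Its log2 ratios were 0.07, 0.05 and −0.08, on both sides of 0. A second Nfkb1 probe, printed as 2 spots on each array, gave 0.13, 0.11 and 0.03, and its spots lay farthest apart in tumor 2, at 0.04 and 0.18. The mean of the brighter probe was 0.01 (SE 0.07, 95% confidence interval −0.15 to 0.17, adjusted p = 0.981 from limma), and the 3 ratios alone gave −0.19 to 0.22. Both intervals thus hold changes of either sign. They end below the means of Nfkb2 and Relb, but the intervals of those genes from their own 3 ratios contain them, so the genes are not separated. The mean was −0.01 without tumor 1 and also −0.01 without tumor 2.

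Rela, the transactivating subunit p65 of the classical dimer, was near 0 in tumor 2 alone, the only tumor with RL in Cy5, so that dye order and tumor cannot be told apart. Its level was 13.45 in the control and 13.91 in the RL culture of tumor 1, 13.73 and 13.76 in tumor 2, and 13.61 and 14.04 in tumor 3. The log2 ratio was 0.46 and 0.42 in tumors 1 and 3, where RL was in Cy3, and 0.03 in tumor 2, where RL was in Cy5. Rela was number 225, 9113 and 91 from the top in tumors 1, 2 and 3. The mean was 0.31 (SE 0.09, 95% confidence interval 0.09 to 0.52, adjusted p = 0.494 from limma), and the interval of its 3 ratios alone was −0.28 to 0.89. In a limma fit with a dye term, the dye coefficient of Rela was −0.20 toward Cy5, and 1.72% of all genes had a coefficient as low or lower. With RL in Cy5 in tumor 2 alone, such a coefficient restates the gap between tumor 2 and the other tumors. The coefficient of Nfkb2 was −0.15 and that of Relb −0.19, with 5.72% and 2.11% of genes as low or lower, and that of Nfkb1 was 0.03. Over the whole array tumor 2 also stood apart. Across all genes, which are not independent replicates, the ratios of tumors 1 and 3 had a Pearson's r of 0.452, and those of tumor 2 had −0.110 with tumor 1 and −0.106 with tumor 3.

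The value of Rela in tumor 2 also depended on how the dyes were balanced. With the scanner software's own processed signals it was −0.06, against 0.47 and 0.45 in tumors 1 and 3. With each array centered on its median in place of loess, the median of all genes moved to −0.41, 0.43 and −0.35 in the 3 tumors, and Rela lay 0.16, 0.32 and 0.17 above these medians. By that scale tumor 2 was the highest for Rela and not the lowest. Nfkb2 then lay 1.14, 0.52 and 0.11 above the median of all genes and Relb 1.04, 0.40 and 0.11, in the same order of tumors as with loess. Nfkb1 lay 0.03, 0.11 and −0.16 from it.

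Rel encodes c-Rel, a subunit known best from lymphocytes. Its single probe was not well above background in any of the 6 channels. In the RL channel the median spot intensity was 29, 73 and 34 in tumors 1, 2 and 3 over a local background of 33, 69 and 35, and in the control channel it was 71, 32 and 70 over 68, 34 and 74. No ratio is reported for Rel as a change, and a transcript below this limit was not detectable.

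**Figure D1:**
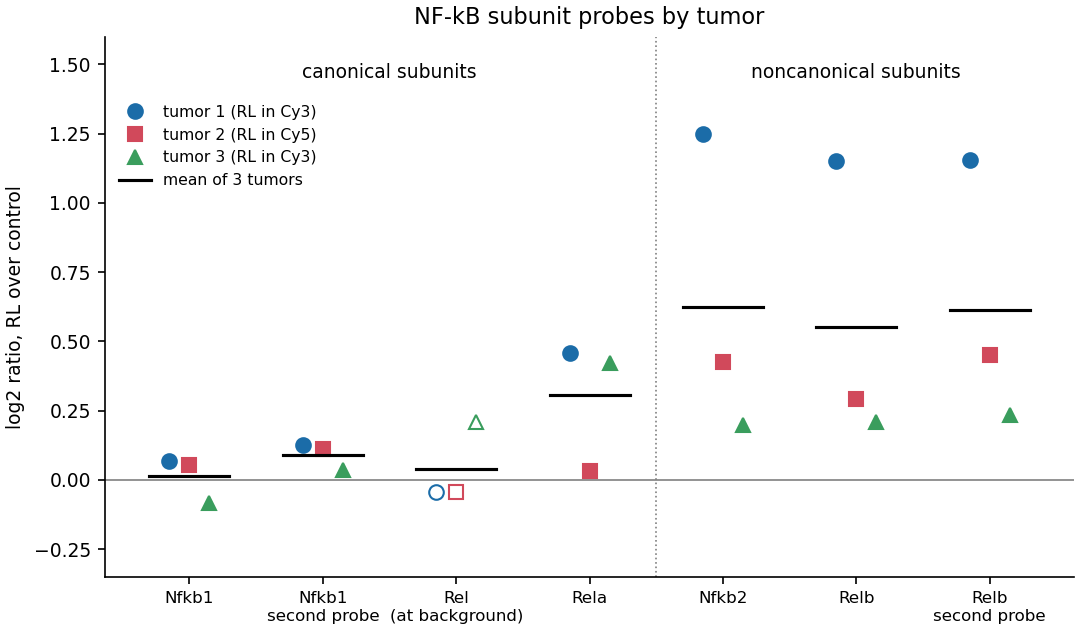
Log2 ratio of RL over control (y axis) for each of the 7 probes of the 5 subunit genes (x axis), with 1 point per tumor and a bar at the mean of the 3 tumors. Nfkb2 and both Relb probes lie above 0 in all 3 tumors with tumor 1 at 1.15 or more, Rela is near 0 in tumor 2, and the open Rel symbols come from spots at background.

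**Figure D2:**
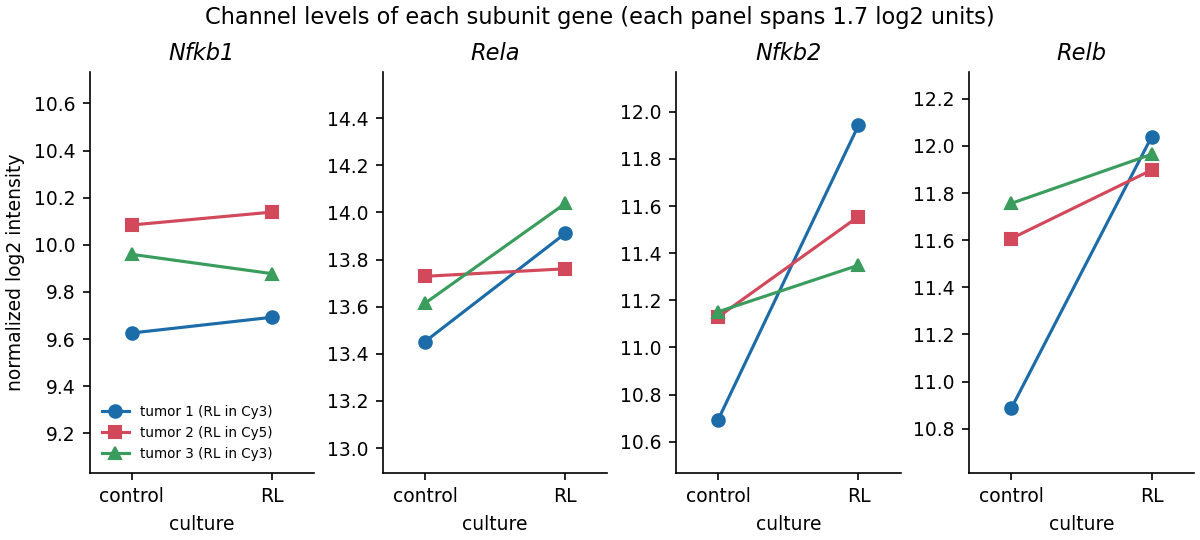
Normalized log2 intensity (y axis) of the control and the RL culture (x axis) of each tumor for the 4 subunit genes tested, 1 line per tumor. Each panel has its own axis, of equal span. The steepest lines are those of Nfkb2 and Relb in tumor 1, from 10.69 to 11.94 and from 10.89 to 12.04.

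Of the 4 subunit genes tested, none passed the adjusted p of 0.05 in limma (0 of 4), a threshold that 0.0046% of all genes passed as higher with RL. At an unadjusted p under 0.05, 3 of the 4 were higher, against 3.62% of all genes. The same 3, Nfkb2, Rela and Relb, were higher in all 3 tumors, against 14.2% of all genes. With a dye term in limma, which weighs the array with RL in Cy5 against both others, 2 of the 4 passed an adjusted p of 0.05, against 0.603% of all genes. These were Nfkb2, with a log2 change of 0.58 (adjusted p = 0.00157), and Relb, with 0.49 (adjusted p = 0.00593), both higher in 3 of 3 tumors. Rela had 0.24 (adjusted p = 0.124) and Nfkb1 0.02 (adjusted p = 0.982) in that fit. Over all alternatives the adjusted p ranged from 0.000159 to 1.00 for Nfkb2, from 0.00017 to 1.00 for Relb and from 0.000619 to 1.00 for Rela. The lowest of each came without tumor 2, where 600 genes passed as higher and 885 as lower. Both arrays left then had RL in Cy3, so dye and RL could not be told apart.

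The dye term leaves 1 residual degree of freedom beside 32.6 prior ones, so its test leans heavily on the variance of other genes. The residual is the gap between tumors 1 and 3. In limma without the dye term there were 2 residual and 6.93 prior degrees of freedom. By rank product, the test of the methods, 1 of the 4 passed a proportion of false positives (pfp) of 0.05, against 0.147% of all genes. That gene was Nfkb2, with a pfp of 0.0444, and Relb followed with 0.0918, Rela with 0.269 and Nfkb1 with 1.

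The comparison of the branches set the mean log2 ratio of Nfkb2 and Relb against that of Nfkb1 and Rela, since Rel could not be used. The noncanonical mean was 1.20, 0.36 and 0.20 in tumors 1, 2 and 3, and the canonical mean was 0.26, 0.04 and 0.17. With the brightest probe of each gene, the noncanonical mean was the higher in each tumor, by 0.94, 0.32 and 0.03. The sign in tumor 3 rests on the choice of Nfkb1 probe. It would turn with the second probe, at 0.03 there in place of −0.08. The mean difference was 0.43 with an SD of 0.46 over the tumors (n = 3), so it was no larger than its spread. Without tumor 1 the mean difference was 0.17. No test was made of it, and an exact sign-flip test over 3 tumors could not give a two-sided p below 0.25.

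The small gap in tumor 3 lay with Rela. Against Nfkb1 alone, Nfkb2 was higher by 1.18, 0.37 and 0.28 and Relb by 1.09, 0.24 and 0.29 in tumors 1, 2 and 3. Against Rela, Nfkb2 was higher by 0.79 and 0.39 in tumors 1 and 2, and its difference was −0.23 in tumor 3. Relb against Rela gave 0.69, 0.26 and −0.22. Within the noncanonical pair, Nfkb2 minus Relb was 0.10, 0.14 and −0.01, with a mean of 0.07 and an SD of 0.08, so the pair did not differ beyond its spread. By mean log2 change the order was thus Nfkb2, Relb, Rela and Nfkb1. Between neighbors in this order, the mean paired difference was below its SD except for Rela and Nfkb1. An SD over 3 tumors is a spread and not a test, so this sets no pair apart. Rela minus Nfkb1 was 0.39, −0.02 and 0.51 in tumors 1, 2 and 3, with a mean of 0.29 and an SD of 0.28. With a dye term it was 0.21, below that SD.

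**Figure D3:**
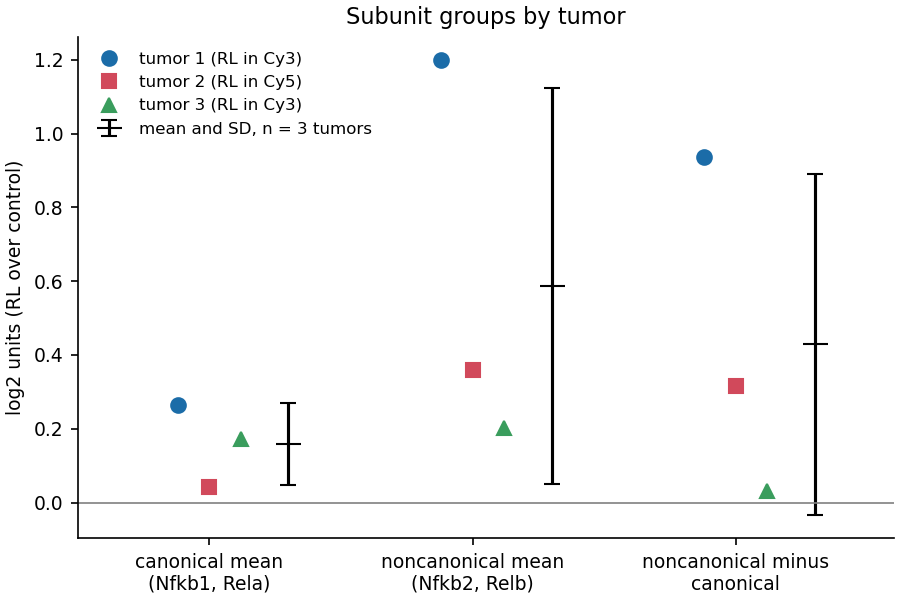
Mean log2 ratio of RL over control for the canonical pair Nfkb1 and Rela and the noncanonical pair Nfkb2 and Relb, and their difference (x axis), in log2 units (y axis), with 1 point per tumor and the mean with its SD beside them. The difference is 0.94 in tumor 1, 0.32 in tumor 2 and 0.03 in tumor 3.

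Several subunit genes are textbook targets of NF-kB itself, so the letters upstream of their starts are shown for the members with an entry in the RefSeq promoter windows (GRCm38.p6), which are 300 bases long and run from 250 bases before to 50 after a start. Of the 5 genes, 3 had an entry, with 3 windows for Nfkb2 and 1 each for Rel and Rela. Windows were searched on both strands for the kappaB consensus, and 4.51% of all 32851 windows held at least 1 match. The Nfkb2 windows and that of Rel held matches, and the window of Rela held none. Of the 3 Nfkb2 windows, 2 overlap and share a match, so they held 5 distinct match positions in all and are not separate cases. In the first Nfkb2 window, 3 match positions lay between 39 and 2 bases before the start, 2 of them overlapping. In the Rel window, 2 overlapping matches lay between 92 and 82 bases before the start. The windows of the IkB genes Nfkbia and Nfkbie held 1 match each. A match is a likeness of letters and not a site shown to be bound, and the absence of one in Rela covers this window only. The 250 bases before the start follow, 5′ to 3′ on the strand of the gene, with matches in capitals, for Nfkb2 at chr19:46304487-46304736 on the plus strand, Rel at chr11:23770970-23771219 on the minus strand and Rela at chr19:5637291-5637540 on the plus strand.
Nfkb2: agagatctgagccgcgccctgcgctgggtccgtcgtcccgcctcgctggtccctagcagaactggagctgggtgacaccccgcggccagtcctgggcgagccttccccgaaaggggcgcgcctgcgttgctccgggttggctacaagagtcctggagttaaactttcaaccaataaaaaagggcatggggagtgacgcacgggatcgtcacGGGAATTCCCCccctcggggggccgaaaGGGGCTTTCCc
Rel: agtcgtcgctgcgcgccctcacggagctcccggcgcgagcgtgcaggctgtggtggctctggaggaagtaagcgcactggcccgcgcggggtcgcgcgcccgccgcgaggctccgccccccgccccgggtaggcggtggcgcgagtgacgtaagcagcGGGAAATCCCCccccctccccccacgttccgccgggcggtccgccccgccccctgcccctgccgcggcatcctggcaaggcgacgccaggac
Rela: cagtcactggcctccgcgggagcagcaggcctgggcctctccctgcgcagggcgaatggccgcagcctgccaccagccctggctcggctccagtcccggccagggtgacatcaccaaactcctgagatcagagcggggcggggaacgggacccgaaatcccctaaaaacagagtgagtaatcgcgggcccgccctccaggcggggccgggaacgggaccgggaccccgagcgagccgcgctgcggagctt

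The receptor end of the pathway was measured on the same arrays. Tnfrsf11a, which encodes RANK, had log2 ratios of 0.11, −0.08 and 0.13 in tumors 1, 2 and 3, and Tnfsf11, which encodes RL, 0.05, −0.03 and 0.21. Neither was of 1 sign in all 3 tumors. The mean of Tnfrsf11a was 0.06, and 0.01 relative to the median of all genes with median centering. The probe of Tnfsf11 passed the background filter only through its RL channels, and its mean was 0.07, against 0.43 with processed signals. Its control level was 6.13, 8.82 and 6.24 in tumors 1, 2 and 3. In tumors 1 and 3 it was thus near that of the Rel probe at background, 6.04 and 5.92, and those ratios are near the floor. The RANK level in the control culture was 10.67, 10.45 and 9.97 in tumors 1, 2 and 3, and thus highest in the tumor with the highest ratios of Nfkb2 and Relb. With 3 tumors this was not tested.

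Between the receptor and the subunits stand adaptors and kinases. Of 20 such genes, all tested, 6 were higher and 2 lower in all 3 tumors, where 14.2% of all genes were higher and 13.3% lower. Their median log2 change was 0.06, and 0.04 without tumor 1, against −0.00068 over all genes. None passed the adjusted p of limma, 5 were higher at an unadjusted p under 0.05 (3.62% of all genes) and 4 passed it as higher with a dye term (0.603%). The 4 were Traf1, Traf2, Traf3 and Birc3, of which the last 3 encode parts of the complex that degrades NIK in resting cells. Traf1 was 1.14, 0.31 and 0.65 in tumors 1, 2 and 3 (mean 0.70, SE 0.13, adjusted p = 0.205 from limma). Traf2 was 0.84, 0.18 and 0.56, although a dimmer probe gave 0.25, 0.23 and 0.12, and Birc3 was 0.66, 0.51 and 0.16. Traf3 was the most even of these, with 0.43, 0.37 and 0.32.

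The IkB kinases themselves showed no common direction. Map3k14, the gene of NIK, was 0.61, 0.21 and −0.15 in tumors 1, 2 and 3, and a second probe gave −0.09, 0.23 and −0.29. Chuk, the gene of IKK alpha, was 0.39, −0.12 and 0.48, so that it was below 0 only in the array with RL in Cy5. Ikbkb, the gene of IKK beta, was −0.10, 0.01 and −0.32, and Ikbkg, which encodes the scaffold NEMO, −0.17, 0.02 and −0.20. For Chuk, Ikbkb and Ikbkg, tumors 1 and 3 thus lay on 1 side of 0 and tumor 2 on the other. Ikbke, an IkB kinase outside that complex, was higher in all 3 tumors, at 0.44, 0.18 and 0.07 (mean 0.23, and 0.13 without tumor 1), and Tab2, an adaptor of the kinase TAK1, was lower in all 3, with a mean of −0.10.

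Inhibitors of NF-kB were listed next. Of 11 IkB genes and negative regulators tested, 5 were higher (14.2% of all genes) and 0 lower in all 3 tumors, and the median of their log2 changes was 0.12. By limma none passed the adjusted p of 0.05, and 4 were higher at an unadjusted p under 0.05 (3.62% of all genes), the same number as with a dye term at an adjusted p under 0.05 (0.603%). Nfkbia, which encodes IkB alpha, was 1.48, 0.47 and 0.38 in tumors 1, 2 and 3 (mean 0.77, SE 0.18, adjusted p = 0.321 from limma). Nfkbie, which encodes IkB epsilon, was 1.31, 0.58 and 0.36. These 2 placed the tumors in the order seen for Nfkb2 and Relb, and without tumor 1 their means were 0.42 and 0.47, against 0.77 and 0.75 with it. Tnip1 and Tnfaip3, whose products act on ubiquitin chains in the pathway, had means of 0.37 and 0.35, the latter with 0.64, 0.16 and 0.24 in tumors 1, 2 and 3 and a mean of 0.20 without tumor 1. Nfkbiz had 0.12, and Bcl3, a nuclear IkB protein that binds p50 and p52 dimers, was 0.17, −0.02 and 0.22.

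Genes that process or assist the subunits form the next lists. Of 8 genes for processing of p105 and p100, 0 were higher and 1 was lower in all 3 tumors, and the list had a median of −0.02, and of 0.02 without tumor 1. The lower one was Fbxw7, a ubiquitin ligase component that targets p100, with a mean of −0.04 and a second probe at 0.01. Of 8 nuclear cofactors examined, 2 were higher and 0 lower in all 3 tumors, with a median of −0.0022, and of 0.01 without tumor 1. The higher ones were Sirt1 (0.15) and Rps3 (0.01). In tumor 3 the ratio of Rps3 was only 5.42e-05, and a second probe gave −0.00094 there. Of all genes 14.2% were higher and 13.3% lower, which would be about 1 gene of each kind in a list of 8. No gene of either list was past an unadjusted p of 0.05 in limma, where 786 genes were higher and 770 lower in all.

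Targets were listed by branch. Of 33 textbook targets of the canonical branch, 31 were on the array and 29 were tested, of which 13 were higher (14.2% of all genes) and 2 lower (13.3%) in all 3 tumors, and the median log2 change was 0.14, and 0.09 without tumor 1. None passed the adjusted p of limma, 11 were higher and 1 lower at an unadjusted p under 0.05 (3.62% and 3.54% of all genes), and with a dye term 5 passed as higher and 1 as lower (0.603% and 0.792%). Tnfaip2 was 1.09, 0.30 and 0.27 in tumors 1, 2 and 3, and a second probe gave 1.09, 0.34 and 0.06. Icam1, a leukocyte adhesion molecule, was 0.71, 0.48 and 0.27. The chemokine Cxcl10 was 0.51, 0.59 and 0.41, without the lead of tumor 1, and its only probe passed the background filter through the RL channels alone. Cxcl10 is part of each count of higher genes given above for this list, by sign, by unadjusted p and with a dye term. Each of these counts therefore holds a gene that was kept only by its signal with RL. The means of Icam1 and Cxcl10 were 0.49 and 0.50, and 0.97 and 1.13 with processed signals. Bcl2a1d was 0.63, 0.13 and 0.15, with a mean of 0.30 and of 0.14 without tumor 1, and Tnfaip2 had a mean of 0.55 and of 0.28 without it. Irf1 and Ccl5 had means of 0.30 and 0.28. The gene called lower both times was Lcn2, named after its values were seen, at −0.82, 0.24 and −0.81 in tumors 1, 2 and 3, with a mean of −0.46 and of −0.29, −0.81 and −0.29 without tumor 1, 2 or 3. The median of this list was 0.17, 0.14 and 0.04 in tumors 1, 2 and 3. Of 6 textbook targets of the noncanonical branch, which are mainly chemokines of lymphoid stroma, 5 were on the array and 3 were tested, of which 1, Madcam1, was higher in all 3 tumors. Its mean of 0.13 was 0.08 without tumor 2, 0.36 with processed signals and 0.26 with the authors' log2 ratios, and the median of the list was 0.05, and 0.09 without tumor 1. The branches share many target genes, so the lists do not separate them.

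**Figure D4:**
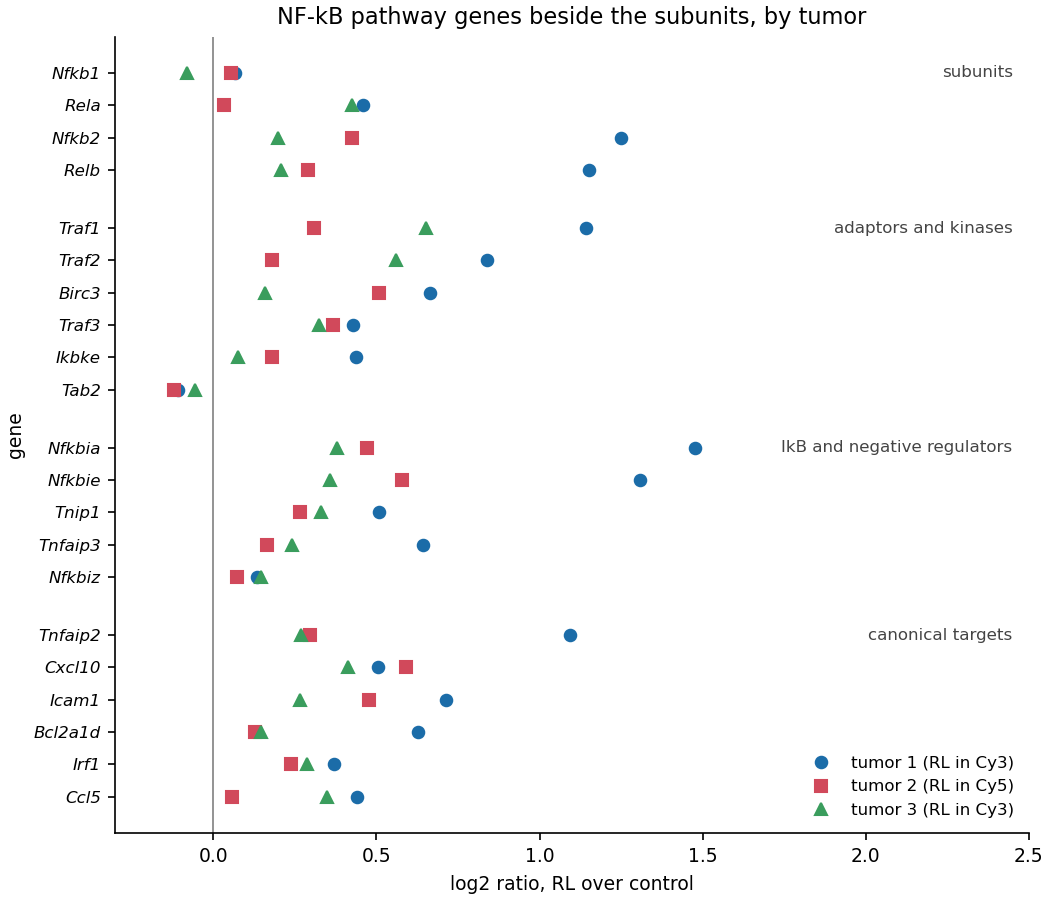
Log2 ratio of RL over control (x axis) for the 4 subunit genes tested and for up to 6 genes of 3 lists (y axis) with the largest mean change of 1 sign in all 3 tumors, 1 symbol per tumor. Nfkb2, Relb, Nfkbia, Nfkbie, Traf1 and Tnfaip2 lie above 1 in tumor 1 and between 0.20 and 0.65 in tumors 2 and 3.

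Genes with the same profile as the noncanonical subunits were sought among 14039 named genes by the distance between their log2 ratios over the 3 tumors. For Nfkb2 the nearest gene was Relb, at a distance of 0.17 log2 units, followed by Spns3 (0.19), C1qtnf1 (0.21), Lbh (0.22) and Tnfaip2 (0.22). For Relb the nearest were Lbh (0.07), Tnfaip2 (0.09), Nfkb2 (0.17), Cfb (0.18) and C1qtnf1 (0.20). All of these had their highest ratio in tumor 1, which follows from choosing them by nearness to profiles led by that tumor. For the same reason their means fell without tumor 1. The mean log2 changes of Spns3, C1qtnf1, Lbh and Cfb were 0.44, 0.37, 0.21 and 0.22 without it, against 0.71, 0.65, 0.53 and 0.49 with it. Within a distance of 0.25 there were 7 genes for Nfkb2 and 9 for Relb. In contrast, 172 genes lay that near to Rela and 6610 that near to Nfkb1, whose profile is close to no change. The distance rests on 3 tumors and says nothing of function.

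The cell composition of the paired cultures was examined with marker lists. All 10 epithelial markers were well above background in all 6 channels, among them Epcam, Krt8, Krt18, Krt5 and Krt14, as were all 8 fibroblast markers, and of 7 myeloid markers 6 were. None of 5 B cell markers was tested. Of 6 T cell markers, Cd3e and Cd4 were well above background in all 6 channels, and Cd2, Cd3d, Cd3g and Cd8a were at background. Of 5 endothelial markers, Kdr and Pecam1 were well above background in all 6 channels, and Cdh5, Emcn and Tie1 were at background. RNA of fibroblast and myeloid markers, and of part of the T cell and endothelial markers, was thus present beside that of the epithelium. The median ratio of epithelial markers was 0.13, −0.18 and −0.07 over tumors 1, 2 and 3, and that of fibroblast markers −0.29, 0.13 and −0.05. In tumor 1, where the ratios of Nfkb2 and Relb were highest, the fibroblast median was thus below 0 and the epithelial median above it, although Krt18 was −0.72 and Elf5 −0.18 there. The mean level of the fibroblast list was 9.51 in the control and 9.25 in the RL culture of tumor 1, 8.87 and 8.95 in tumor 2, and 10.32 and 10.34 in tumor 3. The mean level of the epithelial list was 14.20 and 14.25 in tumor 1, 14.20 and 14.07 in tumor 2, and 14.65 and 14.49 in tumor 3. The myeloid median was −0.09, −0.04 and −0.01. Its values in tumors 2 and 3 were the ratios of a marker that passed the background filter only through its RL channels. Myeloid members lay on both sides of 0, as Cd68 was −0.34, −0.14 and −0.18 and Cd14 was 0.56, −0.18 and 0.06. In each of these 3 lists 1 marker was lower in all 3 tumors (Elf5, Pdgfra and Cd68), against 13.3% of all genes. The markers given with a value or as lower were picked after their values were seen. The part of these shifts in the subunit ratios was not tested.

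The values of Nfkb2 and Relb kept their sign under every alternative run, from 0.31 to 0.84 for Nfkb2 and from 0.25 to 0.72 for Relb. With median centering, which moved the median of all genes to −0.11, values are taken relative to that median. Rela lay between 0.22, with median centering, and 0.44, without tumor 2, when only arrays with RL in Cy3 were left and dye and RL could not be told apart. Nfkb1 lay close to 0 on both sides, from −0.014 without tumor 1 to 0.061 without tumor 3.

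**Figure D5:**
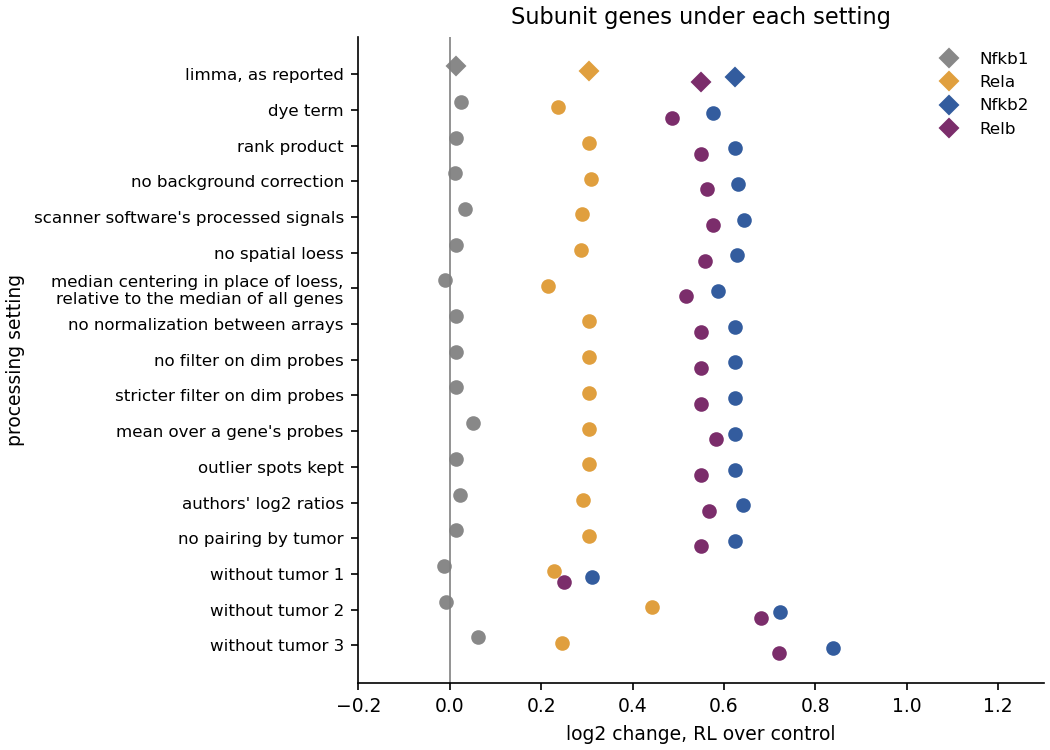
Log2 change of RL over control (x axis) of the 4 subunit genes tested under each processing setting (y axis), with diamonds for the reported limma values. Nfkb2 and Relb stay at 0.25 or above in every setting, Rela between 0.22 and 0.44, and Nfkb1 between −0.014 and 0.061, with median centering drawn relative to the median of all genes.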

How the data were processed

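The authors read the arrays with Agilent Feature Extraction 10.7.3.1 and deposited, for each dye, the spot and local background as median intensity, and the processed intensity after the software's background and dye correction. The deposited log10 values give processed Cy5 over processed Cy3. A value table deposited by the authors holds normalized log2 ratios without a stated direction. Set against the scanner values it was Cy5 over Cy3, so the sign was turned for tumors 1 and 3. These arrays belong to a series other than the one named in the data availability statement and were matched by their labels. The methods speak of dye swaps for each sample, whereas the files hold 1 array per tumor.

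Median intensities were processed in R 4.3.3 with limma 3.58.1 by normexp (offset 50), loess on intensity and then on row and column (span 0.1), and Aquantile between arrays. Spots marked as outliers were left out. Accessions were matched to RefSeq symbols of GRCm38.p6 (28026 of 55681 probes). A probe was kept if all 3 RL channels or all 3 control channels were well above background (29405 probes), and the brightest stood for its gene. Each ratio was fitted with lmFit and eBayes over all genes, which pairs the cultures by tumor, with Benjamini-Hochberg adjustment and a threshold of 0.05. The rank product took its p from a gamma approximation.

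Members and gene lists were chosen with earlier results of these data known. Named genes were the subunits, up to 6 genes per list with the largest mean change of 1 sign in all 3 tumors, 9 further pathway genes whatever their values, and the 5 nearest profiles of Nfkb2 and of Relb. Outside this rule, Lcn2, Cd14, Cd68, Elf5, Krt18 and Pdgfra were named after their values were seen. Lists are described by counts and medians with no test. The alternatives were a dye term, the rank product, other background, normalization, filter and probe choices, no pairing by tumor, the authors' log2 ratios and each tumor left out. The programs were tested on simulated data. Figures were drawn with matplotlib 3.10.9.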

Additional observations from a re-analysis of the deposited data

How the results depend on the processing

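For 42 named genes, 16 alternatives gave 670 values, of which 606 kept their sign and their side of the threshold, 54 crossed it with the same sign and 10 changed sign. With a dye term Nfkb2 (0.58) and Relb (0.49) passed the threshold, and Nfkb2 (0.62) also passed by rank product. With each tumor left out in turn, the log2 change lay between 0.31 and 0.84 for Nfkb2 and between 0.25 and 0.72 for Relb. It lay between 0.23 and 0.44 for Rela and between −0.014 and 0.061 for Nfkb1. Nfkb2, Relb and Rela passed the threshold without tumor 2, where 600 of all 21728 genes passed as higher and 885 as lower. Both arrays left had RL in Cy3, so dye and RL could not be told apart for any of these genes. Median centering gave negative values for Nfkb1 (−0.12), Bcl3 (−0.063), Cd14 (−0.044), Nfkbiz (−0.0032), Rps3 (−0.18), Sirt1 (−0.0090) and Tnfrsf11a (−0.10), but it also moved the median of all genes to −0.11. Relative to that median, 5 of these 7 kept their sign, and Nfkb1 (−0.010) and Rps3 (−0.072) did not. Cd14 was also below 0 without tumor 1 (−0.062). For the subunits, intervals from the 3 ratios alone, chosen after the data were seen, all held 0. The noncanonical minus canonical difference lay between 0.17, without tumor 1, and 0.63, without tumor 3, against 0.43 with all tumors. With no filter on dim probes the difference was 0.47, but it then included Rel at background and is not read as a result.

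By limma 1 gene was higher and 5 were lower with RL. These counts were 131 and 172 with a dye term, 32 and 45 by rank product, 6 and 12 without background correction, and 0 and 0 without pairing by tumor, with processed signals and with median centering. They were 0 and 3 with no filter on dim probes, where more genes were tested, 0 higher with a stricter filter and 2 higher with the authors' log2 ratios. With a tumor left out they lay between 0 and 600 higher and between 2 and 885 lower, the most without tumor 2. The cause of these shifts was not tested. Rel cannot be read at this signal over background, and an offset of 50 compresses ratios of dim probes.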

Other observations

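The tumors were also compared within each condition, over normalized log2 levels, where tumor 2 has its dyes reversed against tumors 1 and 3. For Relb the control cultures lay at 10.89, 11.61 and 11.76 in tumors 1, 2 and 3, a range of 0.87, and the RL cultures at 12.04, 11.90 and 11.96, a range of 0.14. Tumor 1, with the highest ratio, had the lowest control level, and with RL the tumors were nearly level. Over all genes the median range was 0.31 among control cultures and 0.30 among RL cultures, 10.5% of genes had a control range as wide as that of Relb and 18.1% an RL range as narrow. Nfkb2 did not narrow in this way, with a range of 0.46 among control and 0.59 among RL cultures, and there the order of tumors turned around, from lowest to highest for tumor 1.

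The dimmer Relb probe went from a range of 0.84 among control cultures to 0.09 with RL. The probes of Traf2 disagreed, with 0.65 and 0.06 for the brighter and 0.26 and 0.37 for the dimmer. Nfkbie went from 1.08 to 0.35, and Nfkbia had 0.64 and 0.72. Of all genes, 53.7% had a narrower range with RL. For the subunits Nfkb1, Nfkb2, Rela and Relb, tumor 1 had the lowest control level, as it had for 35.8% of all genes. The ratio and the control level of a tumor share a channel, and there was 1 culture per condition and tumor, so a low control culture and a strong response to RL cannot be told apart.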
